A study of Mus musculus with 16 samples.

Results

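The 8 genes of DNA repair that act on the stability of CAG repeats, Msh3, Msh6, Mlh3, Pms1, Pms2, Fan1, Lig1 and Polb were followed through striatal RNA-seq of R6/1 mice. They were chosen by name, with earlier results of these data known. The rule asked for 10 or more counts in 4 or more libraries. All 8 members met it, out of 19363 of 55450 listed genes that did. R6/1 mice carry, beside their own Htt genes, a transgene with exon 1 of human HTT and an expanded CAG repeat under the human HTT promoter. The transgene was not analysed here, so the genotype labels were not checked on it. The 4 groups held 4 mice each: “good” and “poor” performers of the wild type, and “good” and “poor” performers of R6/1. All 16 were males of 14 weeks on a C57BL/6J background, housed alone from before the behavioural tests and killed after them. The study used wild-type littermates of R6/1 mice, from several litters and cohorts. The paper reports that certain mice of a litter tended to rank alike. The sample labels used here give neither cohort nor litter, so neither entered the tests. “Good” and “poor” are the study's own classes, set from Z-scores of rotarod latency, feet clasping and body weight within each genotype, so a “poor” wild-type mouse is not a diseased mouse. Each library was the striatum of 1 mouse.

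Mismatch repair recognises loops and mispairs with MutS dimers and cuts the DNA beside them with MutL dimers. Msh3 is the MutS subunit for larger loops and Msh6 the one for mispairs and short loops. Mlh3, Pms1 and Pms2 are subunits of different MutL dimers. Fan1 is a nuclease of interstrand crosslink repair, Lig1 is the ligase that seals replication and repair nicks, and Polb is the gap-filling polymerase of base excision repair. These factors are known for their part in the somatic growth of the CAG repeat, which goes far in striatal medium spiny neurons. In mouse models, Msh3 and Mlh3 are needed for such growth, and FAN1 is known to oppose it.

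The members lie on 7 chromosomes of GRCm38 (GENCODE M21). Msh3 spans chr13:92211872-92355003 on the minus strand and Msh6 spans chr17:87975062-87990892 on the plus strand. Mlh3 spans chr12:85234520-85270599 on the minus strand. Pms1 spans chr1:53189187-53297018 on the minus strand and Pms2 spans chr5:143909964-143933968 on the plus strand. Fan1 at chr7:64346758-64374095 (minus) and Lig1 at chr7:13277283-13311433 (plus) share a chromosome, and Polb spans chr8:22628126-22653435 on the minus strand.

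Promoter windows show how differently these genes begin. RefSeq windows (GRCm38.p6) of 250 bases before to 50 after the start were held for 7 of the 8 members, all but Polb. The first listed windows of the 4 mismatch repair genes that rose in R6/1 mice are printed 5′ to 3′ on the gene's strand. They are chr17:87974800-87975099 for Msh6, chr12:85270550-85270849 for Mlh3, chr1:53296979-53297278 for Pms1 and chr5:143909751-143910050 for Pms2. Capitals mark matches to a motif on either strand.
Msh6: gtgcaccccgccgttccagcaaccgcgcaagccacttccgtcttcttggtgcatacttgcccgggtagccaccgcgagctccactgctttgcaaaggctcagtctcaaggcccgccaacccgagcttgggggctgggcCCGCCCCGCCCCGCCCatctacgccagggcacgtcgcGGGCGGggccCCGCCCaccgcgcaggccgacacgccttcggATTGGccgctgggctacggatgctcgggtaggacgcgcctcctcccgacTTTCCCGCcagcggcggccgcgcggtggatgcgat
Mlh3: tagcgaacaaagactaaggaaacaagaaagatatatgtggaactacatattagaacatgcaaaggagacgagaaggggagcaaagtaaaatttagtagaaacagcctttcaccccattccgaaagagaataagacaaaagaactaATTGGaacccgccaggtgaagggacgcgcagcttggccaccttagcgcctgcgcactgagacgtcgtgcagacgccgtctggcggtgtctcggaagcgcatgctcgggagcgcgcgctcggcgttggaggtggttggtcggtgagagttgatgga
Pms1: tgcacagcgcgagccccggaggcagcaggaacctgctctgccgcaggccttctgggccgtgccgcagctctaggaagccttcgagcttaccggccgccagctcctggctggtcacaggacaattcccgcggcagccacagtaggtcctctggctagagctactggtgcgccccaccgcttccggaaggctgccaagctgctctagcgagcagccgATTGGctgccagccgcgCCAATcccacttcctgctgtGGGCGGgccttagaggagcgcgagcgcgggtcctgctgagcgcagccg
Pms2: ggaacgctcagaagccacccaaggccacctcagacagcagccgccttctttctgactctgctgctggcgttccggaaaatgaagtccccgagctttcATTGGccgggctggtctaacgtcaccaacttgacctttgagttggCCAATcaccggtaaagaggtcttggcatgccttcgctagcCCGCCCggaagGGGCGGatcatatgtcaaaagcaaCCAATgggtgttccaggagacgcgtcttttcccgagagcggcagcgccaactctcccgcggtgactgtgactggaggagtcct

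The motifs searched on both strands were the CCAAT box (CCAAT), the GC box (GGGCGG), E2F sites (TTTCGCGC, TTTGGCGC and TTTCCCGC), CRE (TGACGTCA), the E-box (CACGTG), NRF1 (by its palindromic consensus) and an ETS site (CCGGAAGT). The Msh6 window holds 5 GC boxes, 3 of which overlap one another, with a CCAAT box at -34 and TTTCCCGC at 16 (1.07% of the 32851 windows of all genes). The Mlh3 window has no GC box, and its only match was a CCAAT box at -105. Pms1 has CCAAT boxes at -35 and -18, and Pms2 has them at -153, -108 and -33. CCAAT and GGGCGG are common, in 37.4% and 35.7% of all windows, and were each in 4 of the 7 members' first windows. No CRE, NRF1 or ETS match was found in the members' windows. The Fan1 window held no match, and a further listed window of Lig1 held TTTCGCGC at 27 and GC boxes at -12 and 5. The Msh3 window, not printed, held TTTGGCGC at -202, overlapping TTTCGCGC at -198, and GC boxes at -150, -102, -54 and -6. TTTCGCGC is in 0.323% and TTTGGCGC in 0.514% of all windows. The GC content of the 4 printed windows ran from 51.7% (Mlh3) to 71.7% (Msh6), beside a median of 52.7% over all windows. A match is only a match of letters.

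The libraries held 16155356 to 24897354 counts (median 20889934). The column headers carry a running number, and libraries 1 to 8 were shallower (up to 20250680) than libraries 9 to 16 (from 21529188). The former held all 4 “good” and 1 “poor” mouse of R6/1 and 2 “good” and 1 “poor” mouse of the wild type, so that no R6/1 “good” mouse was in the latter. Striatal identity was plain in every library: the summed CPM (counts scaled to a common library size) of 12 medium spiny neuron markers was 7347 to 11236 in wild-type and 1974 to 4613 in R6/1 mice, and all 12 fell in R6/1. The 4 markers of cortical projection neurons summed to 9.44 to 669 CPM in wild-type and 16.3 to 729 CPM in R6/1 mice, a wide spread within both genotypes. Markers of other cells were lower in R6/1 mice as well, with 5 of 5 called for microglia, 3 of 3 for cholinergic and 3 of 4 for GABAergic interneurons, 4 of 6 for astrocytes, 3 of 4 for endothelial cells, 3 of 6 for oligodendrocytes and 2 of 4 for pericytes and smooth muscle. None of the markers of oligodendrocyte precursors, ependymal cells, choroid plexus or cortical neurons was called. Over all 19363 genes tested, 17.0% were called lower and 17.2% higher in R6/1 mice (adjusted p under 0.05 with edgeR). The part of these cells in the members' differences was not tested.

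All 8 genes were expressed at low to moderate levels. Per length, as RPKM (CPM divided by the kilobases of merged exons), Polb led in wild-type mice with 11.96 ± 1.06 (SD, n = 8). Mlh3 followed with 4.74 ± 0.560 RPKM and Msh6 with 4.52 ± 0.371 RPKM, which overlapped. Msh3, the other MutS member, stood at 2.59 ± 0.204 RPKM, below Msh6 in 16 of 16 mice. Fan1 (2.15 ± 0.203 RPKM), Lig1 (2.10 ± 0.394 RPKM) and Pms2 (1.98 ± 0.297 RPKM) overlapped one another in wild-type mice. Pms1 was the lowest at 0.576 ± 0.0910 RPKM, below Pms2 in 16 of 16 mice, and rested on 66 to 145 counts per library. The order depends on which exons count as the gene. With the longest coding transcript as the length, chosen after seeing the data, Msh3, whose merged exons are 11254 bases against 3946 for that transcript, moved to second place with 7.38 RPKM, and 3 of the 8 members kept their rank. The place of Polb at the top and of Pms1 at the bottom held under both lengths.

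In R6/1 mice, transcripts of the MutL partners and of Msh6 were more abundant than in wild-type mice, Lig1 was higher and Polb was lower, while Msh3 and Fan1 did not pass the test. Of the 8 members, 5 rose and 1 fell with edgeR's quasi-likelihood test and Benjamini-Hochberg adjustment over all genes. Among all 19363 genes tested, 34.2% were called, 17.2% higher and 17.0% lower, so that a call by itself is common in this comparison. In such bulk tissue, a lower level can come from fewer cells of a type or from less RNA per cell, and these cannot be told apart. The changes were small, between 15.2% lower and 27.1% higher, and for every member the lowest and highest mice of the genotypes overlapped.

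**Figure D1:**
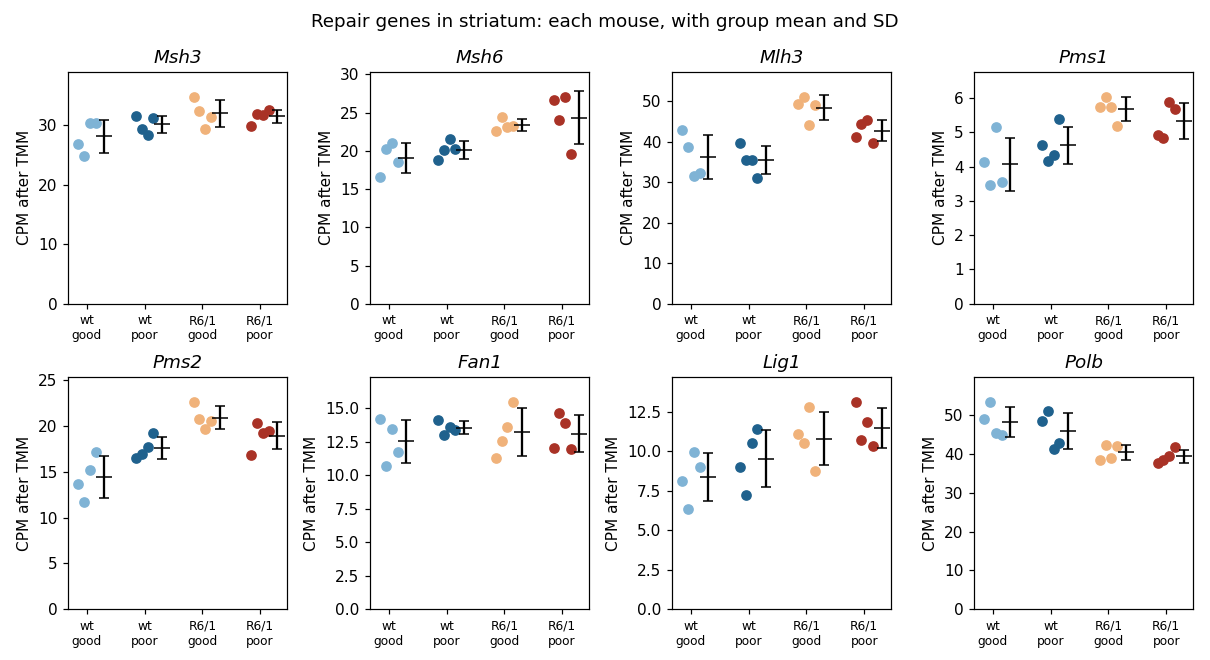
CPM after TMM scaling (y axis, linear from 0) of each of the 8 repair genes in every mouse, by group (x axis). Points are mice, in order 1 to 4 within a group, and the black mark is the group mean with its SD. Mlh3 in R6/1 “good” mice (44.1 to 51.1) stands above all 8 wild-type mice (31.1 to 42.7), and Polb stands lower in both R6/1 groups.

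Mlh3, the MutL partner needed for CAG repeat growth in mouse models, was higher in R6/1 mice. It stood at 42.7, 38.6, 31.4 and 32.2 CPM in wild-type “good” mice 1 to 4 and at 39.6, 35.6, 35.5 and 31.1 CPM in wild-type “poor” mice. It stood at 49.3, 51.1, 44.1 and 49.1 CPM in R6/1 “good” mice and at 41.2, 44.4, 45.4 and 39.7 CPM in R6/1 “poor” mice. All 4 R6/1 “good” mice were above every wild-type mouse, whereas the R6/1 “poor” mice overlapped wild-type “good” mouse 1. The genotype difference was 0.35 ± 0.072 on the log2 scale (SE, n = 8 against 8, adjusted p = 0.00117), or 27.1% higher. Within wild-type mice, Mlh3 went with medium spiny neuron marker RNA (Pearson's r = 0.90, exact permutation p = 0.00260, adjusted p = 0.167 over 64 relations of members with 4 marker lists, Spearman's rho = 0.93, exact permutation p = 0.00223, adjusted p = 0.143, 8 mice). That relation did not pass the correction, and it was 0.82 without the 2 mice farthest from the median CPM of Mlh3. Among the same wild-type mice, r with these markers was -0.76 for Msh3 (exact permutation p = 0.0261, adjusted p = 0.418, rho = -0.62 with exact permutation p = 0.115 and adjusted p = 0.605), and -0.0076 without the 2 farthest mice. For Pms2 it was -0.77 (exact permutation p = 0.0231, adjusted p = 0.418, rho = -0.74 with exact permutation p = 0.0458 and adjusted p = 0.560), and -0.070 without the 2 farthest mice. With the cortical markers, r of Mlh3 was -0.70 (exact permutation p = 0.0414, adjusted p = 0.530, rho = -0.48 with exact permutation p = 0.243 and adjusted p = 0.677), and -0.41 without the 2 farthest mice. These relations did not pass the correction either, and those of Msh3 and Pms2 rest on the farthest mice. Between genotypes Mlh3 and the medium spiny neuron markers went opposite ways, with the markers lower and Mlh3 higher in R6/1 mice. Within R6/1 mice their r was 0.70 (exact permutation p = 0.0506, adjusted p = 0.540) and rho 0.64 (exact permutation p = 0.0962, adjusted p = 0.560, 8 mice), and r was 0.77 without the 2 farthest mice. The 8 R6/1 mice pool both classes, with a mean Mlh3 of 48.4 CPM in “good” and 42.7 CPM in “poor” mice. Their marker sums were 2944 to 4613 CPM in “good” and 1974 to 2701 CPM in “poor” mice. The part of class and library set in the r of R6/1 mice was not tested. The sets of libraries held 3 and 5 wild-type mice, too few for a value within each.

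Pms2, the MutL partner of canonical mismatch repair, and Pms1, whose biochemical role is less clear, rose as well. Pms2 stood at 13.7, 11.8, 15.2 and 17.2 CPM in wild-type “good” and at 16.5, 17.0, 17.8 and 19.3 CPM in wild-type “poor” mice. It stood at 22.6, 20.8, 19.7 and 20.5 CPM in R6/1 “good” and at 16.8, 20.3, 19.3 and 19.4 CPM in R6/1 “poor” mice. Here too the R6/1 “good” mice were above every wild-type mouse, while R6/1 “poor” mouse 1 lay amid the wild-type “poor” mice and mouse 3 just below the highest of them. The difference was 0.31 ± 0.087 (log2, SE, adjusted p = 0.00932 with edgeR). Pms1 stood at 4.12, 3.46, 5.14 and 3.55 CPM in wild-type “good”, 4.64, 4.16, 4.33 and 5.38 CPM in wild-type “poor”, 5.73, 6.03, 5.72 and 5.19 CPM in R6/1 “good” and 4.91, 4.83, 5.88 and 5.69 CPM in R6/1 “poor” mice. Wild-type mice with 5.14 and 5.38 CPM reached into the R6/1 range. The difference was 0.34 ± 0.10 (log2, SE, adjusted p = 0.0155 with edgeR).

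The MutS partners differed in how clear their change was. Msh6 stood at 16.5, 20.2, 21.1 and 18.6 CPM in wild-type “good” and at 18.8, 20.1, 21.6 and 20.2 CPM in wild-type “poor” mice. It stood at 22.6, 24.5, 23.1 and 23.2 CPM in R6/1 “good” and at 26.7, 24.0, 27.1 and 19.6 CPM in R6/1 “poor” mice. R6/1 “poor” mouse 4 alone, at 19.6 CPM, lay within the wild-type range, and the other 7 R6/1 mice lay above it. The difference was 0.28 ± 0.069 (log2, SE, adjusted p = 0.00400 with edgeR). Msh3 stood at 26.9, 24.9, 30.3 and 30.4 CPM in wild-type “good” and at 31.6, 29.4, 28.4 and 31.2 CPM in wild-type “poor” mice. It stood at 34.8, 32.4, 29.3 and 31.5 CPM in R6/1 “good” and at 29.9, 32.0, 31.7 and 32.5 CPM in R6/1 “poor” mice, with wide overlap. Its difference, 0.12 ± 0.054 (log2, SE, 95% interval 0.01 to 0.24), had an unadjusted p of 0.0323 and an adjusted p of 0.0819 with edgeR. The interval leaves room for a rise of up to 1.18-fold.

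The ratio of Msh3 to Msh6 had a median of 0.580 in wild-type and 0.513 in R6/1 mice per merged exon length. The log2 difference of -0.15 did not pass an exact permutation test over 8 against 8 mice (two-sided p = 0.103, adjusted p = 0.206 over 4 pairs chosen with the values known). The ratios of Mlh3 to Pms2 (2.24 and 2.47) and of Pms1 to Pms2 (0.301 and 0.313) differed by 0.025 and 0.026 on the log2 scale (both adjusted p = 0.859, exact permutation test). The scale of each ratio depends on gene length, while its difference between genotypes does not. With the longest coding transcript as the length, the medians of Msh3 to Msh6 were 1.62 in wild-type and 1.43 in R6/1 mice, so that Msh3 then stood above Msh6.

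Lig1 and Polb, which join and fill repair gaps, moved in opposite directions. Lig1 stood at 8.14, 6.36, 9.96 and 8.98 CPM in wild-type “good” and at 8.97, 7.25, 10.5 and 11.4 CPM in wild-type “poor” mice. It stood at 11.1, 10.5, 12.8 and 8.74 CPM in R6/1 “good” and at 13.1, 10.7, 11.8 and 10.3 CPM in R6/1 “poor” mice. The difference of 0.31 ± 0.11 (log2, SE, adjusted p = 0.0375 with edgeR) passed the test narrowly. The call was lost when any 1 of 9 of the 16 mice was left out (adjusted p up to 0.0831) and within either set of libraries (adjusted p = 0.119 and 0.209, all with edgeR), while the direction stayed the same. R6/1 “good” mouse 4 lay below the wild-type median of 8.98. Polb stood at 49.1, 53.5, 45.5 and 45.0 CPM in wild-type “good” and at 48.6, 51.2, 41.2 and 42.9 CPM in wild-type “poor” mice. It stood at 38.5, 42.3, 39.0 and 42.1 CPM in R6/1 “good” and at 37.8, 38.4, 39.5 and 41.9 CPM in R6/1 “poor” mice. Wild-type “poor” mouse 3, at 41.2 CPM, lay within the R6/1 range, and the other 7 wild-type mice lay above it. Polb fell by 0.24 ± 0.054 on the log2 scale (SE, adjusted p = 0.00226 with edgeR), or by 15.2%.

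The RPKM ratio of Lig1 to Polb was 0.110 to 0.246 (median 0.177) in wild-type and 0.192 to 0.320 (median 0.262) in R6/1 mice, a log2 difference of 0.56. The pair was chosen with the opposite directions of its genes known, so the ratio is a description of those differences. Mice with less Lig1 had more Polb among wild-type animals (Pearson's r = -0.93, exact permutation p = 0.000918, Spearman's rho = -0.95, exact permutation p = 0.00114, 8 mice). Adjusted over 56 relations, 28 member pairs in 2 genotypes, these p were 0.0514 and 0.0639, and 0 of the 56 passed. Without the 2 mice farthest from the median of Lig1, r was -0.90. Within R6/1 mice r was -0.73 (exact permutation p = 0.0363, adjusted p = 0.303) and rho -0.71 (exact permutation p = 0.0576, adjusted p = 0.461, 8 mice), and r was -0.51 without the 2 farthest mice. In R6/1 mice, r of Lig1 with the summed medium spiny neuron markers was -0.79 (exact permutation p = 0.0208, adjusted p = 0.418, 8 mice, rho = -0.67 with exact permutation p = 0.0831 and adjusted p = 0.560), and -0.29 without the 2 farthest mice, on which it rests. Each r within a genotype pools both classes, and the part of class, library set or cell composition in these values was not tested.

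**Figure D2:**
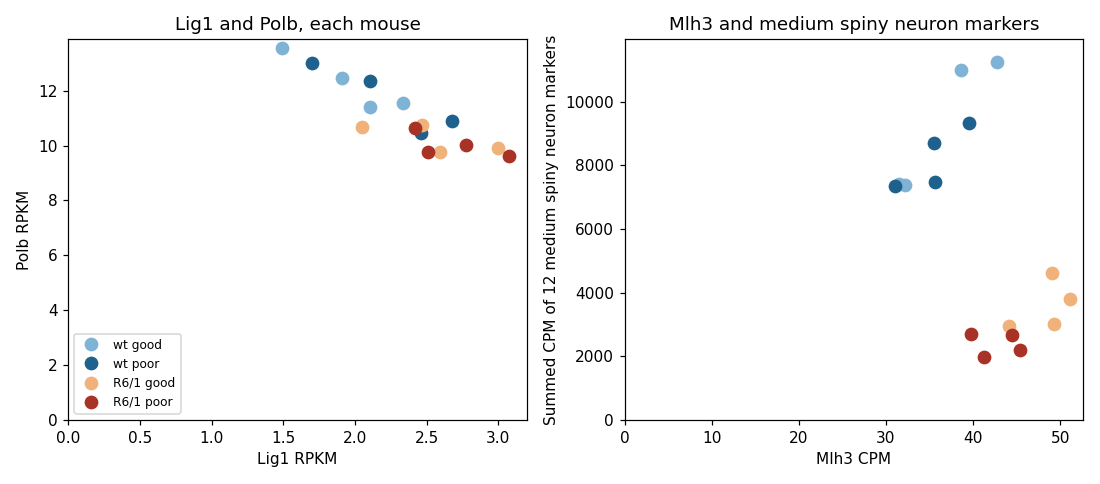
Left, Polb (y axis) against Lig1 (x axis) in each mouse (both axes RPKM per merged exon length, linear from 0). Right, the summed CPM of 12 medium spiny neuron markers (y axis) against Mlh3 CPM (x axis). Each point is 1 of the 16 mice, coloured by group. Most R6/1 mice sit below and to the right of most wild-type mice in the Lig1 and Polb plot, with Lig1 to Polb ratios of 0.192 to 0.320, and the wild-type mice with more Mlh3 have more marker RNA while R6/1 mice have high Mlh3 at low marker sums.

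Fan1, the nuclease that opposes repeat growth, showed no detectable genotype difference. It stood at 14.2, 10.7, 13.5 and 11.7 CPM in wild-type “good” and at 14.2, 13.002, 13.6 and 13.4 CPM in wild-type “poor” mice. It stood at 11.3, 12.6, 13.6 and 15.5 CPM in R6/1 “good” and at 12.009, 14.6, 13.9 and 11.9 CPM in R6/1 “poor” mice, and the ranges lay over one another. The difference was 0.015 ± 0.078 (log2, SE, adjusted p = 0.903 with edgeR), with a 95% interval from -0.15 to 0.18, that is from 0.903-fold to 1.13-fold.

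Within libraries 1 to 8, the genotype differences were 0.38 (Msh6), 0.31 (Mlh3), 0.41 (Pms1), 0.39 (Pms2), 0.30 (Lig1), -0.26 (Polb), 0.10 (Msh3) and 0.0045 (Fan1) on the log2 scale. Msh6, Mlh3, Pms2 and Polb passed the test there, as did 4368 of all 19363 genes. Within libraries 9 to 16, they were 0.24 (Msh6), 0.29 (Mlh3), 0.29 (Pms1), 0.19 (Pms2), 0.37 (Lig1), -0.24 (Polb), 0.12 (Msh3) and -0.025 (Fan1). Of the members only Mlh3 passed (adjusted p = 0.0464 with edgeR), and of all 19363 genes 3401 passed. The direction of all 6 called members was the same in both sets. The R6/1 mice were 4 “good” and 1 “poor” in libraries 1 to 8, and 3 “poor” in libraries 9 to 16. The 2 sets therefore compare different classes of R6/1 mice with wild-type mice.

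Taking the R6/1 groups apart, the study asked whether expression goes with the severity of the phenotype. Both R6/1 groups were compared with the same 8 wild-type mice, so their values are given side by side. In R6/1 “good” mice, Mlh3 (0.43 ± 0.085), Pms1 (0.38 ± 0.13), Pms2 (0.38 ± 0.11) and Msh6 (0.25 ± 0.073) rose and Polb fell by 0.22 ± 0.072 (log2, SE, adjusted p from 0.00182 to 0.0468 with edgeR). These were 5 of 8 members, where 24.6% of all genes tested were called, 12.1% higher and 12.4% lower. The count was 2 with the library set as a covariate, against wild-type “good” mice alone, without a filter on low counts, or without R6/1 “good” mouse 1 or 2, and 3 without R6/1 “good” mouse 3 or 4, wild-type “good” mouse 1 or wild-type “poor” mouse 1 or 2. In these fits, 2698 to 4488 of all 19363 genes were called, and 3847 of 39552 without the filter. For Msh6, Mlh3 and Pms2 the 4 mice stood above all wild-type mice, as did 7.46% of all genes tested. In R6/1 “poor” mice, Msh6 (0.31 ± 0.092) and Mlh3 (0.25 ± 0.086) rose and Polb fell by 0.26 ± 0.072 (adjusted p from 0.0157 to 0.0401 with edgeR). These were 3 of 8, where 28.5% of all genes were called, 13.5% higher and 14.9% lower. The count was 0 without R6/1 “poor” mouse 1, where 3829 of 19363 genes were called, and 1 without R6/1 “poor” mouse 3 (3662 genes). It was 1 against wild-type “poor” mice alone (3735 genes) and 1 within libraries 9 to 16 (3401 genes). Libraries 1 to 8 held 1 R6/1 “poor” mouse, so no count is given for them. Pms1 (0.29 ± 0.13, adjusted p = 0.119), Pms2 (0.24 ± 0.11, adjusted p = 0.124) and Lig1 (0.36 ± 0.14, adjusted p = 0.0653) did not pass in this comparison. Lig1 (0.27 ± 0.15, adjusted p = 0.197), Msh3 (0.14 ± 0.072, adjusted p = 0.184) and Fan1 (0.022 ± 0.099) did not pass in R6/1 “good” mice, nor did Msh3 (0.11 ± 0.069) and Fan1 (0.0084 ± 0.094) in R6/1 “poor” mice.

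**Figure D3:**
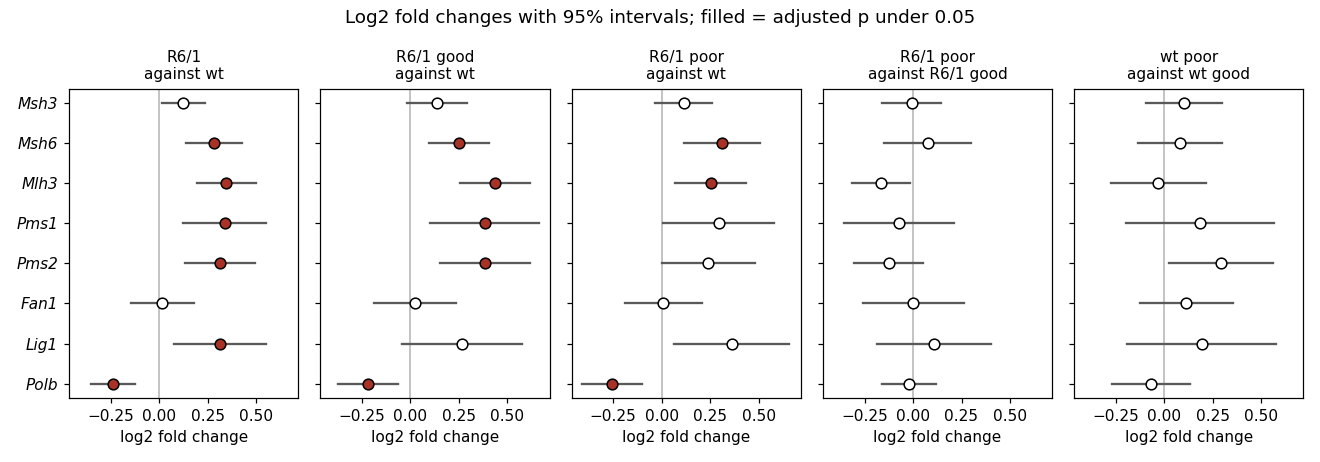
Log2 fold changes (x axis) of the 8 members (y axis) in 5 comparisons, with 95% intervals as lines. Filled points had an adjusted p under 0.05 with edgeR. Filled are 6 points for R6/1 against wild type, 5 for R6/1 “good”, 3 for R6/1 “poor”, and 0 in either comparison of “poor” with “good” mice.

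Set against each other directly, the “poor” and “good” classes of R6/1 gave 0 calls among the members, and edgeR called 0 of all 19363 genes (0%), with 3000 (15.5%) at an unadjusted p under 0.05. DESeq2 called 331 genes and 0 of the members. The member with the largest difference was Mlh3, lower in “poor” mice by 10.9%, with a log2 difference of -0.17 (95% interval -0.32 to -0.02, adjusted p = 0.291 with edgeR). Pms2 (-0.13, 95% interval -0.31 to 0.05) and Pms1 (-0.074, 95% interval -0.36 to 0.21) had the same sign, and Lig1 (0.11, 95% interval -0.19 to 0.40) and Msh6 (0.075, 95% interval -0.15 to 0.30) the other. Msh3 (-0.0078), Fan1 (0.0017) and Polb (-0.022) lay near 0, with intervals of -0.16 to 0.14, -0.26 to 0.26 and -0.16 to 0.12. The “good” mice were all in libraries 1 to 8 and 3 of the 4 “poor” mice were not, so performance and library set can hardly be told apart here.

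Among wild-type mice, “poor” against “good”, edgeR called 0 members and 0 genes (0%), with 472 (2.44%) at an unadjusted p under 0.05, and DESeq2 called 0. Pms2 was the member with the largest difference, 22.3% higher in “poor” mice (log2 0.29, 95% interval 0.02 to 0.56, adjusted p = 1.00 with edgeR). The other 7 members had log2 differences from -0.068 (Polb) to 0.19 (Lig1). For the interaction of genotype and performance, 0 members and 0 genes were called by edgeR (1118 genes, 5.77%, at an unadjusted p under 0.05) and 1 gene by DESeq2. Pms2 gave the largest value among the members. Its “poor” minus “good” difference was 0.43 ± 0.15 (log2, SE) less in R6/1 than in wild-type mice (95% interval of the interaction -0.74 to -0.12, adjusted p = 0.826 with edgeR).

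Genes whose exons overlap those of a member can share its reads. On opposite strands this needs counting that ignored strand, and that setting was not given in the sources used here. Pms1 and Pms2 begin head-to-head with a gene on the opposite strand that does not overlap them in GENCODE M21. The starts of Pms1 and Ormdl1, a regulator of sphingolipid synthesis, lie 77 bases apart, and Ormdl1 (chr1:53297095-53310309) was higher in all 8 R6/1 mice (9.14 to 13.01 CPM) than in any wild-type mouse (6.02 to 8.36 CPM). Its log2 difference was 0.56 ± 0.091 (adjusted p = 0.000126 with edgeR), beside 0.34 for Pms1. Of all genes tested, 4.05% were higher without overlap. The starts of Pms2 and Aimp2, a scaffold of the tRNA synthetase complex, lie 117 bases apart, and Aimp2 (chr5:143902704-143909847) differed by 0.10 ± 0.078 (adjusted p = 0.324).

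Exon overlaps were small. Rsph10b shares 85 exonic bases with Pms2 on the same strand and went the other way, falling by 0.59 ± 0.14 (log2, SE, adjusted p = 0.00266 with edgeR). Gm42421 shares 394 bases with Pms2 and had 0 counts in every library. Lig1 shares 247 bases with Zswim9, whose log2 difference was -0.035 (adjusted p = 0.675). Fbxo11 shares 34 bases with Msh6 and differed by 0.051 (adjusted p = 0.533), and Gm26909 shares 45 bases with Polb at 8 to 27 counts. Fan1 and Mlh3 share no exonic base with another gene in this annotation.

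Other genes of mismatch repair were read from a list of 19 genes, 18 of which passed the filter (Msh4 had at most 5 counts). Of these, 7 rose and 1 fell in R6/1 mice, where 17.2% of all genes were called higher and 17.0% lower. Their median log2 difference was 0.16, beside 0.021 over all genes tested. Pcna, the sliding clamp, rose by 0.23 ± 0.047 without overlap and Rfc1, of the clamp loader, by 0.18 ± 0.046, whereas Rfc5 of the same loader fell by 0.54 ± 0.12 (adjusted p from 0.000981 to 0.00474 with edgeR).

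The base excision repair list, to which Polb belongs by function, showed no common direction. Of 21 genes tested, 4 rose and 2 fell, where 17.2% of all genes were called higher and 17.0% lower, with a median log2 difference of 0.037. Poll, a polymerase related to Polb, rose by 0.29 ± 0.065, Apex1, the main abasic site nuclease, by 0.27 ± 0.093 and Neil2, a glycosylase at 1.60 CPM in wild-type mice, by 0.68 ± 0.21 (log2, SE). Tdg, the thymine glycosylase, fell by 0.22 ± 0.056, close to the change of Polb. Adjusted p ran from 0.00203 to 0.0301 with edgeR.

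In interstrand crosslink repair, the pathway of Fan1, 5 of 20 genes rose and 2 fell (median 0.11), beside the same 17.2% and 17.0% of all genes. Fancb, of the core complex, fell by 1.04 ± 0.14 and was lower in every R6/1 mouse than in any wild-type mouse, as were 5.03% of all genes. Fancd2, whose ubiquitinated form recruits Fan1, fell by 0.61 ± 0.15. Fancg, of the core complex, rose by 0.42 ± 0.092, and Ube2t, the ubiquitin-conjugating enzyme of the pathway, rose by 1.02 ± 0.22 from a mean of only 0.809 CPM. Adjusted p for these 4 ran from 1.65e-05 to 0.00345 with edgeR.

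In nucleotide excision repair, 8 of 18 genes rose and 1 fell (median 0.11), among them Ercc3, a helicase of TFIIH, by 0.47 ± 0.07, Cetn2 by 0.39 ± 0.08, Gtf2h5 by 0.23 ± 0.054 and Ercc8 by 0.27 ± 0.066. In double-strand break repair, 8 of 19 rose and 1 fell (median 0.17). The counts of both lists stand beside 17.2% of all genes called higher and 17.0% lower. Xrcc5, the larger Ku subunit, rose by 0.29 ± 0.051, Prkdc, the kinase that Ku recruits, by 0.38 ± 0.069, Blm, a helicase, by 0.58 ± 0.12 and Rbbp8, a factor of end resection, by 0.70 ± 0.14. Adjusted p for these 8 genes ran from 6.02e-05 to 0.00379 with edgeR.

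Of other loci that candidate work has tied to the age of onset of Huntington's disease, Rrm2b, a ribonucleotide reductase subunit, rose by 0.47 ± 0.083 from 45.0 to 62.2 CPM with no overlap between genotypes (adjusted p = 0.000277 with edgeR). Ccdc82 (0.0023 ± 0.038) did not pass.

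Replication genes, with which Lig1 and Msh6 are commonly expressed, were read as a separate list, since dividing cells could carry them. Of 22 genes, 8 rose and 0 fell (median 0.21), where 17.2% of all genes were called higher and 17.0% lower. Rrm1 rose by 0.32 ± 0.057, Prim1 by 0.45 ± 0.085, Pola2 by 0.49 ± 0.10 and Prim2 by 0.50 ± 0.11 (log2, SE, adjusted p from 0.000307 to 0.00118 with edgeR). Markers of dividing cells were low: the 7 genes summed to 7.88 to 25.9 CPM in wild-type and 14.7 to 21.8 CPM in R6/1 mice, and 1 of 7 rose (Birc5, 0.73 ± 0.19, adjusted p = 0.00670, named after its value was seen). The 4 neuroblast markers summed to 37.5 to 107 CPM in wild-type and 87.4 to 132 CPM in R6/1 mice, and 1 of them rose (Dcx, 0.50 ± 0.15, adjusted p = 0.0180 with edgeR). The part of these cells in the members' values was not tested.

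**Figure D4:**
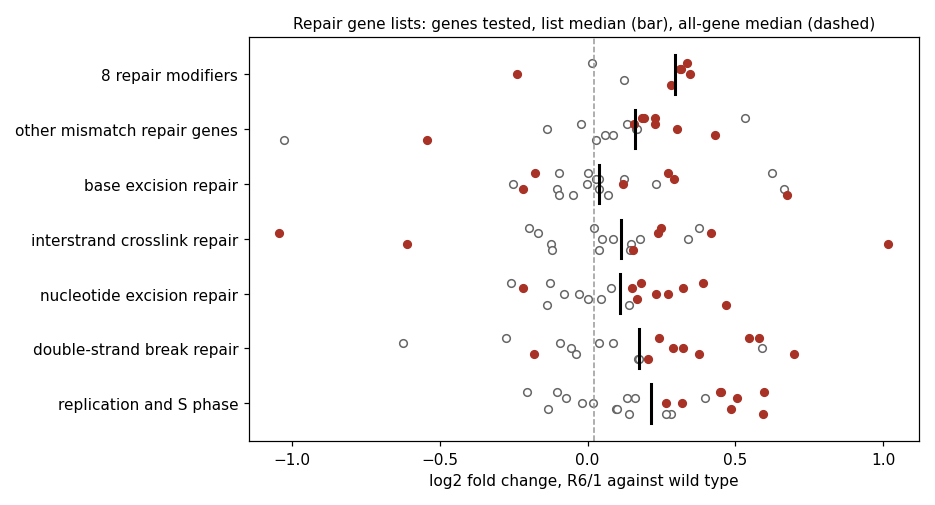
Log2 fold change of R6/1 against wild-type mice (x axis) for each gene tested of 7 lists (y axis). Filled points had an adjusted p under 0.05 with edgeR, black bars are list medians, and the dashed line is the median of all genes tested (0.021). The median of the 8 repair modifiers is 0.30, with Polb alone among the called members to the left of 0, and the crosslink repair list spreads from -1.04 (Fancb) to 1.02 (Ube2t).

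Over the 16 mice, the genes whose log2 CPM followed each member most closely were looked up among 14574 genes, as a description. Both genotype and performance groups contribute to these values, so r after removal of the 4 group means is given second. For Msh3 they were Rbmx2 (r = 0.92 and 0.86), Htr5a (0.90 and 0.90) and Galns (0.90 and 0.82). For Msh6 they were N4bp2 (0.96 and 0.93), 1110015O18Rik (0.94 and 0.84) and Gprasp1 (0.93 and 0.90). Mlh3 was followed by Eri2 (0.93 and 0.78), Cog5 (0.93 and 0.78) and Rtl8c (0.92 and 0.73), and Pms1 by Spata7 (0.92 and 0.81), Ercc8 (0.89 and 0.68) and E130317F20Rik (0.87 and 0.69).

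For Pms2 the closest were Asxl1 (r = 0.94 and 0.85), Pik3cd (0.93 and 0.82) and Pnma2 (0.92 and 0.82). Lig1 was followed by Pias3 (0.91 and 0.84), Fam214b (0.90 and 0.83) and Tcp11l2 (0.90 and 0.82), and Polb by Cystm1 (0.94 and 0.84), Igsf11 (0.93 and 0.84) and Zfp180 (0.93 and 0.83). Fan1 had the weakest followers, Pigz (0.83 and 0.85), Srebf1 (0.78 and 0.80) and Usp30 (0.77 and 0.76). For Fan1 the value was not lowered by removing the group means in 2 of these 3 genes. For every other member it fell in all 3, though for Msh3 and Htr5a only from 0.904 to 0.902. The genes were picked by the first value, so this contrast is a description and no test.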

How the data were processed

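RNA-seq counts of striatal mRNA from 16 mice, 1 library each, were used as deposited. The authors made stranded libraries, sequenced paired ends and mapped them to GRCm38 with TopHat 1.0.1. Their processing notes also name CASAVA and Bowtie. The deposited values are raw counts per gene. The annotation release, the strand setting and the counter were not given in the sources used here. All 16 columns were used.

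A gene entered the tests with 10 or more counts in 4 or more libraries (19363 genes). The main test was the robust quasi-likelihood test of edgeR 4.0.16 (R 4.3.3) with TMM factors, fitted to the groups compared, with Benjamini-Hochberg adjustment over all genes tested and a threshold of 0.05. SE and 95% intervals come from the same fits, and the code was tested on simulated data. Total counts were 16155356 to 24897354 per library, and Pms1 had the fewest counts of the members. CPM use TMM factors, and RPKM the exon lengths of GENCODE M21. DESeq2 1.42.0 was an alternative. Correlations within a genotype and ratios of members, both chosen with the values known, were tested by exact permutation (Python 3.11.15, numpy 2.4.6), and figures were drawn with matplotlib 3.10.9.

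The comparisons were all R6/1 against all wild-type mice, each R6/1 group against all wild-type mice, “poor” against “good” within each genotype, and the interaction. Alternatives were other scaling, filters, a replicate block, the library set, matched controls, and leaving out each mouse. The members and lists were chosen with earlier results of these data known. The text names all members, up to 4 genes per list with the smallest p for R6/1 against wild type, the 3 genes most like each member, and head-to-head partners within 1 kb. A few of the genes so named, and what lies beside them, are not reported here. The 6 same-numbered pairs of groups gave 24 correlations of deviations from the group means, of which 8 were over 0.1, so the replicate number was not taken to pair mice. No 2 libraries agreed within sampling noise.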

Additional observations from a re-analysis of the deposited data

How the results depend on the processing

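For R6/1 against wild-type mice, 178 of 200 recomputed member values kept their direction and their side of the threshold, 16 lost the call and 6 changed sign, all 6 of Fan1. Mlh3 was called in 25 of 25 settings, Msh6, Pms2 and Polb in 24, Pms1 in 23 and Lig1 in 14, and Msh3 and Fan1 in 0. The members called numbered 1 within libraries 9 to 16, where 3401 of 19363 genes were called. Lig1 lost its call without wild-type “good” mice 1, 2 or 4 (adjusted p = 0.0747, 0.0765 and 0.0603), wild-type “poor” mice 1 or 2 (0.0626 and 0.0831), R6/1 “good” mice 1 or 3 (0.0532 and 0.0705) or R6/1 “poor” mice 1 or 3 (0.0746 and 0.0635), with edgeR. The cause of these changes was not tested.

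For R6/1 “good” against wild-type mice, 5 members were called, but 2 with no filter on low counts, 2 with the library set as a covariate and 2 against wild-type “good” mice alone. All genes called there numbered 3847 of 39552, 3970 of 19363 and 2698 of 19363. Leaving out 1 mouse gave 2 (without R6/1 “good” mouse 1 or 2) to 5, with 3 without wild-type “good” mouse 1, wild-type “poor” mouse 1 or 2, or R6/1 “good” mouse 3 or 4. Mlh3 was called in 21 of 21 settings. For R6/1 “poor” against wild-type mice, 3 were called, but 1 within libraries 9 to 16 and 1 against wild-type “poor” mice alone. All genes called there numbered 3401 and 3735 of 19363. The fit within libraries 9 to 16 is the same as that of R6/1 against wild type, since all R6/1 mice there were “poor”. Leaving out 1 mouse gave 0 (without R6/1 “poor” mouse 1) to 3, with 1 without R6/1 “poor” mouse 3. The cause was not tested, beyond the fewer mice in these fits. In the other 3 comparisons, 0 members were called in every setting run. R6/1 “poor” against “good” could not be fitted within libraries 9 to 16, which hold no R6/1 “good” mouse, nor could the interaction or R6/1 “good” against wild type.

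The values that changed sign were those of members that had no call in the comparison at hand. Not all were near 0: the main interaction values were -0.126 for Fan1 and -0.098 for Lig1. Libraries 1 to 8 held 1 “poor” mouse of each genotype, so differences of “poor” from “good” mice within them rest on that mouse. For R6/1 against wild type, Fan1 was -0.0051 with the library set as a covariate, -0.0246 within libraries 9 to 16 and -0.0289 to 0.0438 when a mouse was left out. For R6/1 “good” it was -0.0154 with the covariate, -0.0292 within libraries 1 to 8 and -0.0625 to 0.0906 when a mouse was left out, and for R6/1 “poor” -0.000806 with at least 50 counts, -0.0246 within libraries 9 to 16, -0.046 against wild-type “poor” mice and -0.047 to 0.0509 when a mouse was left out. For R6/1 “poor” against “good”, Fan1 was -0.00195 with at least 50 counts, -0.0136 in 1 fit of all groups and -0.067 to 0.0839 when a mouse was left out. Msh3 was 0.00636 without a filter, 0.00771 with the covariate, 0.00761 within libraries 1 to 8 and -0.0427 to 0.0343 when a mouse was left out. Among wild-type mice, Mlh3 was 0.00272 with the covariate, 0.0794 within libraries 1 to 8 and -0.0925 to 0.053 when a mouse was left out, Polb was 0.0477 within libraries 1 to 8, and Msh6 was -1.69e-05 within libraries 9 to 16. For the interaction, Msh6 was 0.00668 without a filter and -0.075 to 0.0726 when a mouse was left out, Lig1 was -0.19 to 0.028 and Polb -0.00647 to 0.10 when a mouse was left out, and within libraries 1 to 8 Fan1 was 0.0295 and Polb -0.11.

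With the replicate block, 6 members were called for R6/1 against wild type, 4 for R6/1 “good”, 4 for R6/1 “poor” and 0 in each other comparison. Same-numbered mice of different groups correlated by -0.52 to 0.36, and 2 of 16 mice correlated best with their own number. In R6/1 “good” mice the block took the call of Pms1 (adjusted p = 0.0657), and in R6/1 “poor” mice it added Lig1 (adjusted p = 0.0377). With the longest coding transcript as the length, chosen after seeing the data, 3 of 8 members kept their rank. All 24 genes of like pattern were named again with a prior count of 0.5. Depth limits all members, and Pms1 had the fewest counts, at 66 to 145 per library.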
